A study of Mus musculus with 4 samples.

Results

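Axon guidance genes were examined in RNA sequencing of the mouse hippocampus after global cerebral ischemia. The members are the ligands and receptors of the 4 classical guidance systems, found by their gene symbols alone: semaphorins of classes 3 to 7 with plexins and neuropilins, ephrins with Eph receptors, Slits with Robos, and netrins with Dcc and the Unc5 receptors. The rule found 67 of the 22609 gene symbols counted, 34 ligands and 33 receptors. All animals were female mice whose ovaries had been removed 1 week earlier, and all had both common carotid arteries closed for 20 min and reopened for 24 h. The controls (FLOX-control, n = 2) are floxed mice without the knockout. In the knockouts (GFAP-ARO-KO, n = 2) Cre driven by the GFAP promoter is meant to delete the floxed Cyp19a1 in astrocytes; this gene encodes aromatase, the enzyme that makes estrogens from androgens. The GFAP promoter can also act in neural stem cells. The labels used here give neither the age of the mice nor the promoter fragment. No sham-operated group was analysed here, so a difference between genotypes that preceded ischemia cannot be told apart from one that followed it.

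Guidance cues are secreted or membrane-bound proteins that attract or repel growing axons through receptors which act on the cytoskeleton of the growth cone. In the adult hippocampus the same families shape dendritic spines and synapses, and several also act in blood vessels, in the oligodendrocyte lineage and in immune cells. After brain injury some of them, such as class 3 semaphorins and ephrins, are known as inhibitors of axon regrowth.

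The 4 libraries held 27930696 to 34878375 reads assigned to genes. Counting noise alone would give a chi-square near its degrees of freedom; the ratio was 13.8 for the control pair and 26.0 for the knockout pair, so each library was counted as 1 sample. The labels do not say that the 2 libraries of a group came from separate animals, and p-values measure only the spread between these libraries, which may be technical. Reads of the targeted gene Cyp19a1 numbered 3 and 2 for controls and 1 and 9 for knockouts, too few to check the genotype. Markers of dentate granule cells, of CA1 and CA3 pyramidal neurons and of inhibitory neurons were detected in all 4 libraries with no member at 0. The marker lists of striatum, neocortex and choroid plexus had no member at 0 either, so this detection cannot check the label hippocampus.

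Of the 67 members, 66 passed the filter on low counts. The gene left out was Epha1, an Eph receptor mainly of epithelia, which had 7 and 4 reads (controls) and 0 and 2 reads (knockouts). A count of 0 in the first knockout library allows up to 0.0860 CPM (counting error only). CPM is the count scaled to a fixed library total. For this bound the total is of all gene reads, and for every other value it is of genes passing the filter, with TMM factors. In the knockout 12 of the 66 members fell and 5 rose, by edgeR's quasi-likelihood test with a Benjamini-Hochberg adjusted p under 0.05 over all 15011 genes tested. The 17 called members are 25.8% of the 66, against 20.4% of all genes. The lower members are 18.2% against 11.0% of all genes, and the higher ones 7.58% against 9.39%, so the share that rose was near the background. With 1 library left out in turn, 4 of the 17 members passed every time and 13 did not; each such fit takes its spread from the other group alone and has fewer degrees of freedom, so a lost call does not show a smaller effect. The median log2 fold change was -0.14 for the 66 members and 0.00 for all genes. The knockout values lay on one side of both controls for 43 members (65.2%), no more than the 64.8% of all genes, and this separation by itself therefore says nothing about the members. In bulk tissue fewer cells of a type and less RNA per cell cannot be told apart, which holds for every value that follows.

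Receptors made up most of the falls. Of 32 tested receptors 9 fell (28.1%) and 2 rose, whereas of 34 ligands 3 fell (8.82%) and 3 rose. Over all genes 11.0% fell and 9.39% rose, so the ligand shares were near the background. The difference between ligands and receptors was not tested. The family counts that follow are of few genes each, and are to be read against the 20.4% of all genes called. The median log2 fold change was -0.24 for receptors and 0.10 for ligands. The 4 members with the smallest p were the plexins Plxnb3 and Plxnc1, the netrin receptor Unc5b and the semaphorin Sema3e, each at least 2-fold lower in the knockout.

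**Figure D1:**
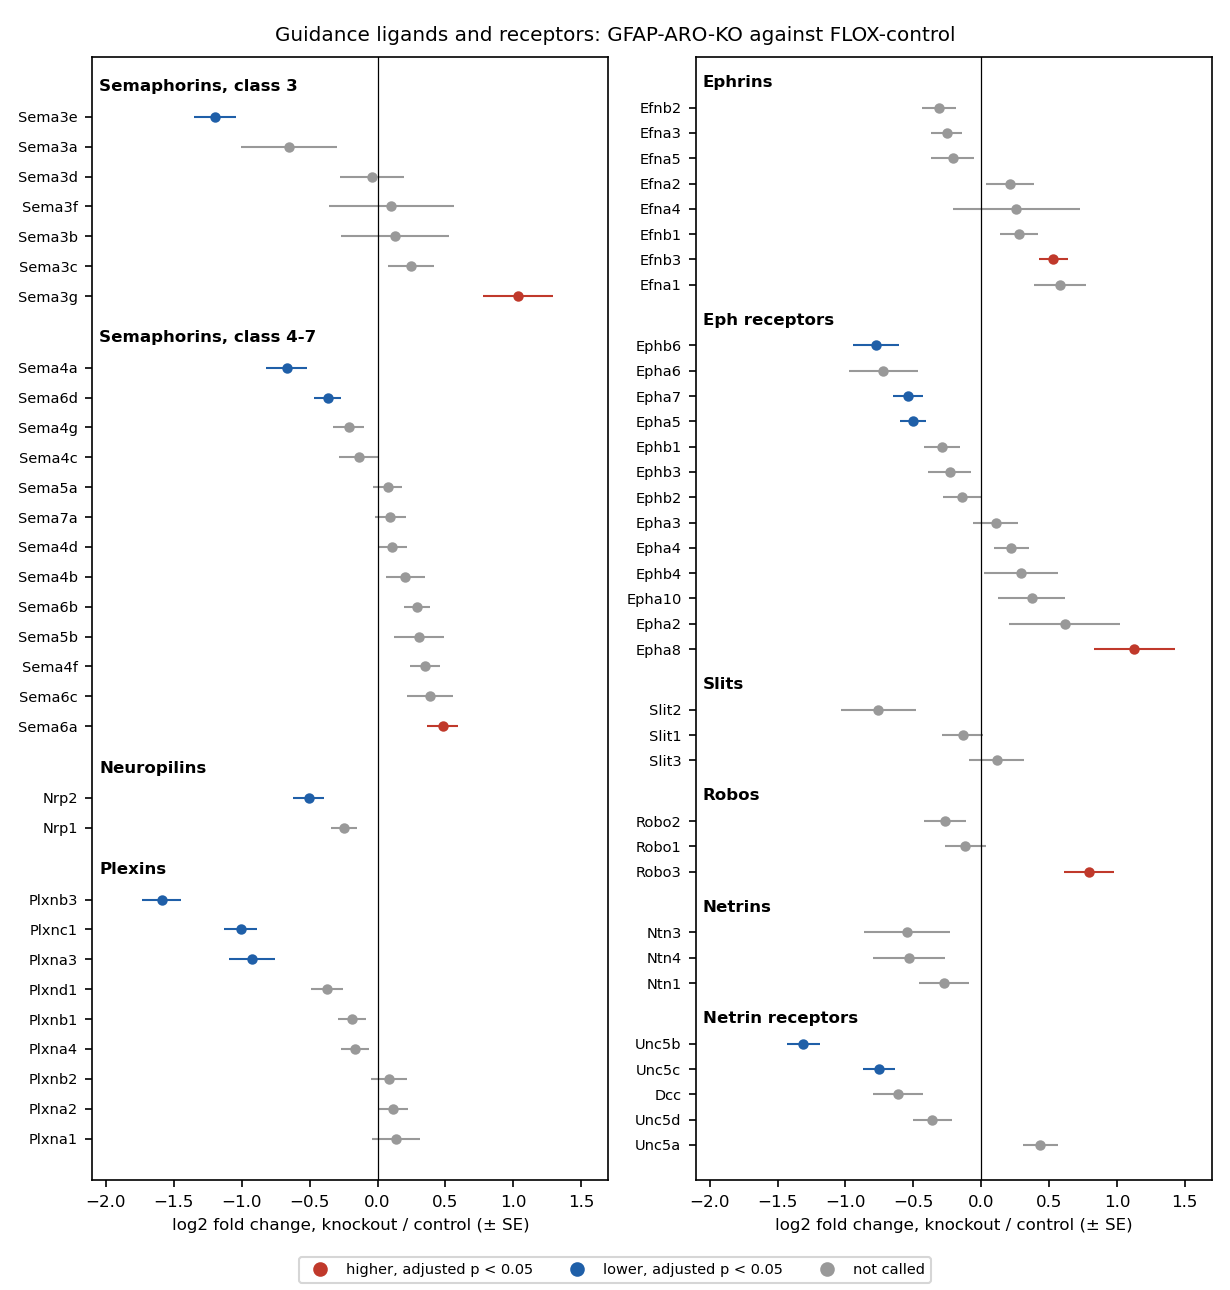
Log2 fold change of the 66 tested members (knockout against control, points, with standard errors as bars), grouped by family and ordered within it. Blue marks the 12 members called lower, red the 5 called higher and gray the rest, and 9 of the 12 blue points are receptors.

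The semaphorins were the largest ligand family, with 20 members, all tested. Class 3 semaphorins are secreted and mostly signal through a neuropilin joined to a class A plexin. Sema3e is the exception, since it binds Plxnd1 directly and acts on vessels as well as axons. It lies on chromosome 5 (14025276 to 14256689, plus strand, mm9). Sema3e was at 100 and 136 CPM in controls and at 53.8 and 49.0 CPM in knockouts. Both knockout libraries were below both controls, and Sema3e fell by 1.20 ± 0.15 (log2 scale ± SE, adjusted p = 0.00407). Its receptor gene Plxnd1 was at 44.8 and 45.8 CPM in controls and 37.3 and 32.6 CPM in knockouts, a log2 fold change of -0.37 ± 0.12 that did not pass (adjusted p = 0.0587). Sema3g, a ligand of Nrp2 made chiefly by endothelium, went the other way, from 4.72 and 5.38 CPM to 8.03 and 12.8 CPM. The second knockout library was the higher one, and Sema3g rose by 1.03 ± 0.26 (adjusted p = 0.0306), or by 0.68 without that library (adjusted p = 0.0466). The other 5 class 3 genes did not pass. Sema3a, the founding collapse factor of growth cones, was at 4.84 and 3.18 CPM in controls and 1.79 and 3.44 CPM in knockouts, which overlap. Sema3f, the Nrp2 ligand that repels hippocampal axons, was at 3.79 and 1.499 CPM against 2.17 and 3.65 CPM, and its libraries overlapped too.

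Semaphorins of classes 4 to 7 are held in the membrane. Of 13, 2 fell, 1 rose and 10 did not pass. Sema4a, best known from immune cells, was at 46.1 and 44.2 CPM in controls and 32.3 and 24.3 CPM in knockouts, and fell by 0.67 ± 0.15 (adjusted p = 0.0214). Sema6d, a ligand of Plxna1, was at 69.8 and 70.3 CPM against 52.5 and 56.1 CPM, and fell by 0.37 ± 0.10 (adjusted p = 0.0388). Sema6a, a ligand of Plxna2 and Plxna4 that directs hippocampal mossy fibers, was at 22.9 and 24.0 CPM against 32.4 and 32.9 CPM, and rose by 0.48 ± 0.11 (adjusted p = 0.0263). The groups of all these 3 genes lay apart, and Sema6a and Sema6d, both of class 6, moved in opposite directions. Sema7a, which is anchored by a lipid, had the highest level of any semaphorin per kilobase of exon, at 47.0 CPM per kb over the 4 libraries. It was at 164 and 136 CPM in controls and 165 and 155 CPM in knockouts, with a log2 fold change of 0.09 ± 0.12 (adjusted p = 0.597) that became -0.036 without the second control. Added up per kilobase, the 20 semaphorins came to 165 in each control library and to 168 and 172 CPM per kb in knockouts, so the losses and gains of single members left the family's sum within a few percent. Sema3e made up 8.02% and 10.9% of that sum in controls and 4.23% and 3.77% in knockouts.

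Plexins are the semaphorin receptors and carry a GTPase-activating domain inside the cell. Of 9, 3 fell and 6 did not pass. Plxnb3, the receptor of Sema5a and in the brain chiefly a gene of the oligodendrocyte lineage, lies on the X chromosome (71002429 to 71017853, plus strand, mm9). It was at 27.2 and 29.5 CPM in controls and 10.1 and 8.69 CPM in knockouts. That is 3.01-fold lower, the strongest fall of any member (log2 fold change -1.59 ± 0.14, adjusted p = 0.00133). Plxnc1, the receptor of Sema7a, lies on chromosome 10 (94253617 to 94407212, minus strand, mm9). It went from 84.2 and 103 CPM to 46.0 and 47.1 CPM, and fell by 1.01 ± 0.12 (adjusted p = 0.00346). Plxna3, which with Nrp2 forms the receptor of Sema3f, went from 23.2 and 31.3 CPM to 14.95 and 13.7 CPM, and fell by 0.92 ± 0.17 (adjusted p = 0.0122). For all these 3 plexins the knockout libraries lay close together, below both controls. None of the ligands named for them passed. Sema7a and Sema3f are given above, and Sema5a was at 115 and 124 CPM in controls and 117 and 135 CPM in knockouts (log2 fold change 0.08 ± 0.11, adjusted p = 0.648). The log2 fold change of Sema3f, 0.10 ± 0.46, is too imprecise to set against that of Plxna3. Ligands and receptors were not tested against each other. Plxna1 had the highest level per kilobase among plexins, 28.1 CPM per kb. At 204 and 280 CPM against 295 and 236 CPM its libraries overlapped, and its log2 fold change of 0.14 ± 0.17 (adjusted p = 0.615) turned to -0.069 without the first control and to -0.036 without the first knockout library. Plxna2, Plxna4, Plxnb1 and Plxnb2 had log2 fold changes from -0.19 to 0.12.

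Neuropilins are the ligand-binding subunits of the class 3 receptors. Nrp2 was at 101 and 114 CPM in controls and 80.1 and 70.5 CPM in knockouts, and fell by 0.51 ± 0.11 (adjusted p = 0.0216). Both subunits of the Sema3f receptor, Nrp2 and Plxna3, were thus among the lower genes. Nrp1, which also binds vascular endothelial growth factor, was at 123.2 and 134.4 CPM against 108 and 109 CPM. Its groups did not overlap either, but the log2 fold change of -0.25 ± 0.10 did not pass (adjusted p = 0.109). Per kilobase Nrp1 was the more abundant, at 20.1 CPM per kb against 9.59 for Nrp2.

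**Figure D2:**
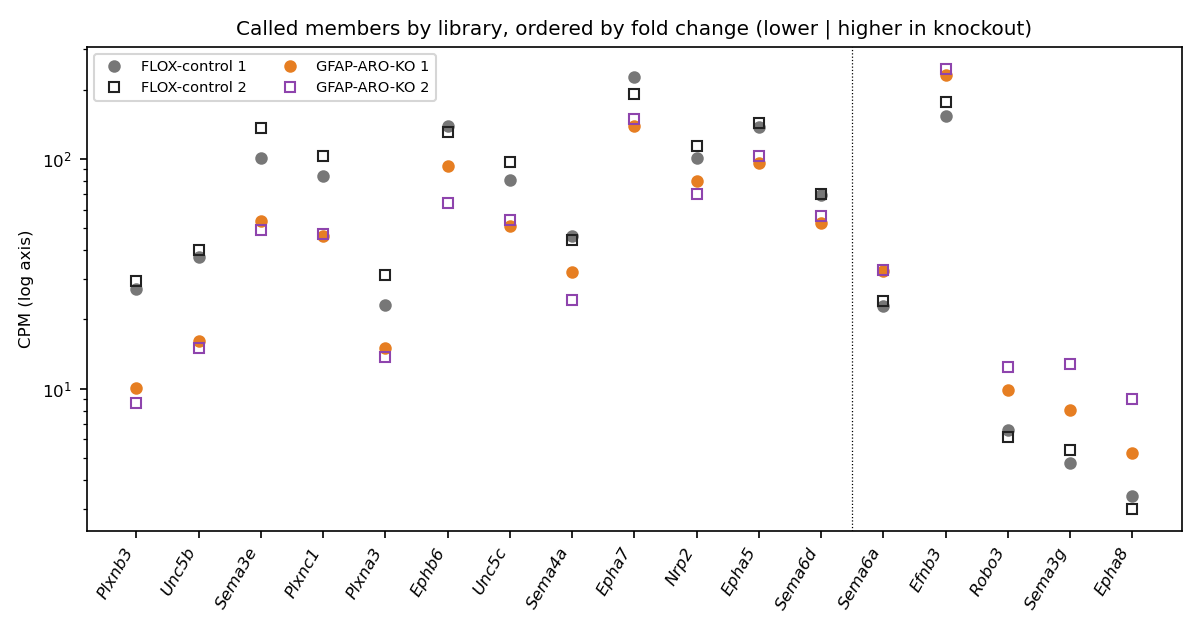
Level in CPM (log axis) of the 17 called members in each of the 4 libraries, ordered by fold change from Plxnb3 on the left to Epha8 on the right. In every called member both knockout libraries lie on one side of both controls, as they do for 64.8% of all genes tested. The calls rest on these same values, so this separation is no further evidence. The knockout libraries differ most from each other for Ephb6, Sema4a, Sema3g and Epha8.

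Ephrins are membrane-held ligands, the A class by a lipid anchor and the B class by a transmembrane segment, and they signal in both directions with the receptors they touch. Of 8 ephrins 1 rose and 7 did not pass. Efnb3, a repellent for axons that bear Epha4 and a synaptic organizer in the hippocampus, lies on chromosome 11 (69367594 to 69373707, minus strand, mm9). It was at 153 and 177 CPM in controls and 231 and 246 CPM in knockouts. Both knockouts were above both controls, and Efnb3 rose by 0.53 ± 0.11 (adjusted p = 0.0154). It had the highest level per kilobase of the ephrins, 63.4 CPM per kb. Among the 7 ephrins with a length it made up 46.5% and 50.0% of the summed level per kilobase in controls and 57.3% and 61.3% in knockouts. Efna3, the next, was at 75.5 and 75.2 CPM against 68.7 and 57.7 CPM and did not pass (adjusted p = 0.155).

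Eph receptors are receptor tyrosine kinases. Of 13 tested, 3 fell, 1 rose and 9 did not pass. Ephb6, whose kinase domain is inactive, was at 140 and 131 CPM in controls and 93.0 and 64.5 CPM in knockouts, and fell by 0.78 ± 0.17 (adjusted p = 0.0216). Epha7, a receptor of A ephrins that restrains dendrites and later organizes excitatory synapses, was at 226 and 192 CPM against 139 and 149 CPM, and fell by 0.54 ± 0.11 (adjusted p = 0.0175). Epha5, its close relative, was at 138 and 143 CPM against 95.5 and 102 CPM, and fell by 0.50 ± 0.10 (adjusted p = 0.0127). As means over the 4 libraries these 3 genes stood at 28.3, 17.9 and 11.9 CPM per kb. The most abundant Eph receptor, Epha4, which binds ephrins of both classes and limits spines opposite astrocytes, stood at 70.3 CPM per kb and did not pass. It was at 360 and 462 CPM in controls and 479 CPM in each knockout, with a log2 fold change of 0.22 ± 0.13 (adjusted p = 0.243) that was 0.061 without the first control and 0.412 without the second. As a result of these levels the share of Epha4 in the summed Eph receptor level per kilobase was 36.1% and 41.1% in controls and 50.3% and 52.8% in knockouts. Epha8, a scarce receptor of A ephrins, rose by 1.13 ± 0.30 (adjusted p = 0.0361), from 3.41 and 2.998 CPM to 5.24 and 8.97 CPM. The second knockout library was the higher one, and without it Epha8 stood at 0.72 and did not pass (adjusted p = 0.0613). Epha6 was at 57.6 and 95.9 CPM in controls, which differed from each other by more than the first control did from the knockouts (52.0 and 40.9 CPM), and did not pass (adjusted p = 0.0967), although it did with DESeq2 and without the first control.

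**Figure D3:**
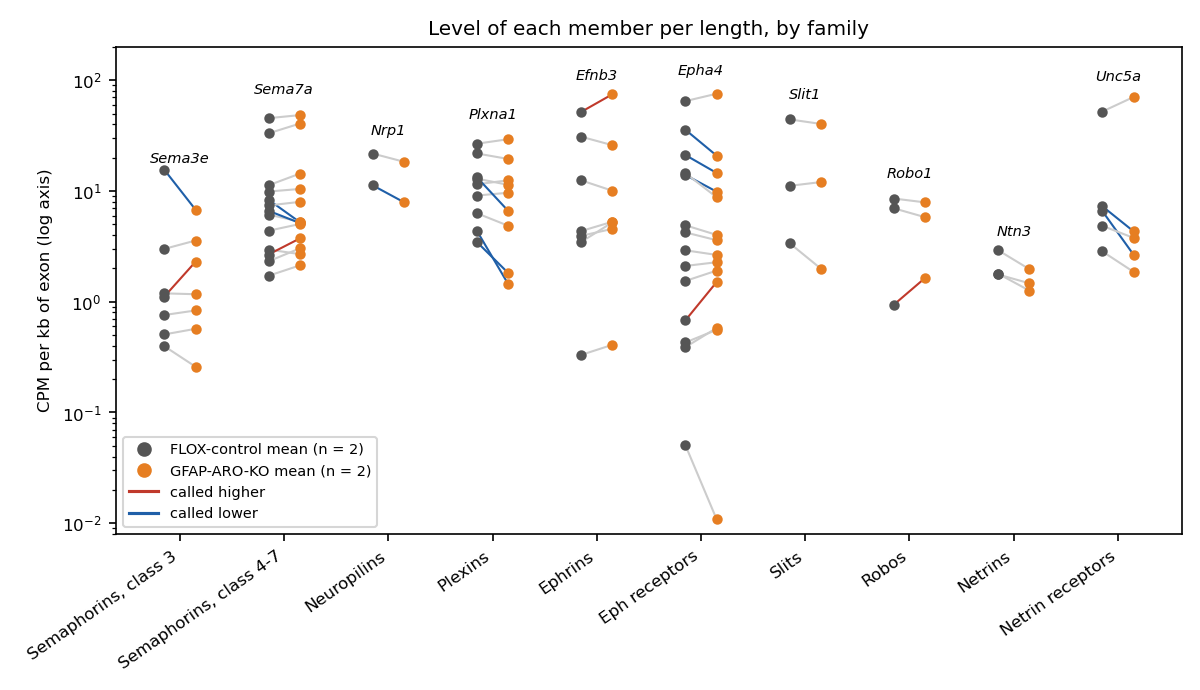
Level per kilobase of exon (CPM per kb, log axis) of the 66 members with a unique length in the annotation, as the mean of the 2 controls (gray) and of the 2 knockouts (orange), joined by a line that is blue where the member was called lower and red where it was called higher. The most abundant member of each family is named, and among these only Sema3e (lower) and Efnb3 (higher) carry a colored line.

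Slits are large secreted repellents, and Robo1 and Robo2 are their main receptors. None of the 3 Slits passed by edgeR, although for 1 the unadjusted p was under 0.05; DESeq2 called that 1 and limma-voom 0. That gene was Slit2, at 40.7 and 61.4 CPM in controls and 36.9 and 23.2 CPM in knockouts (log2 fold change -0.76 ± 0.28, adjusted p = 0.107). Slit1, the neuronal Slit, was the most abundant at 42.4 CPM per kb. With 234 and 291 CPM against 268 and 211 CPM it overlapped between groups, and its log2 fold change of -0.14 ± 0.15 (adjusted p = 0.557) turned to 0.029 without the second control and 0.039 without the second knockout library. Robo1, at 8.23 CPM per kb the most abundant of its family, was at 69.2 and 94.2 CPM against 74.4 and 76.5 CPM (log2 fold change -0.12 ± 0.15, adjusted p = 0.613), and at 0.122 without the second control. Robo3, the divergent Robo known from axons that cross the midline, was at 6.60 and 6.15 CPM in controls and 9.83 and 12.4 CPM in knockouts, and rose by 0.79 ± 0.19 (adjusted p = 0.0249). Robo3 was thus the 1 called gene among the 6 of this system, and at 1.29 CPM per kb it was the scarcest Robo.

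Netrins attract axons through Dcc and repel them through Unc5 receptors, which also trigger cell death when unbound. None of the 3 netrins passed by edgeR, 0 had an unadjusted p under 0.05, and DESeq2 and limma-voom each called 0. Ntn3, the highest as a mean over the 4 libraries (2.45 CPM per kb) but the lowest in the second knockout library, was at 13.8 and 14.8 CPM in controls, 13.2 CPM in the first knockout and 6.14 CPM in the second, so that its log2 fold change of -0.55 ± 0.32 (adjusted p = 0.265) rested on the second knockout library. Without the first knockout library it was at -1.22 (adjusted p = 5.60e-04), a fit in which that 1 library stands for the knockout and the close control pair gives all the spread, and without the second it was at -0.11. Its exons overlap those of Tbc1d24 and of the long noncoding RNA BC028777, and no source used here states whether counting used strand, so these genes could share reads. Ntn1 was at 11.7 and 10.4 CPM against 7.98 and 10.5 CPM, and the groups overlapped.

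Of the 5 netrin receptors 2 fell and 3 did not pass. Unc5b, the Unc5 receptor of vessels and of some neurons, lies on chromosome 10 (60225358 to 60294329, minus strand, mm9). It was at 37.2 and 40.1 CPM in controls and 16.1 and 15.1 CPM in knockouts. The libraries of each group nearly coincided, and Unc5b was 2.48-fold lower (log2 fold change -1.31 ± 0.12, adjusted p = 0.00146). Unc5c went from 81.0 and 96.5 CPM to 51.1 and 54.2 CPM, and fell by 0.75 ± 0.12 (adjusted p = 0.00686). Dcc, the attractive receptor, had 19.2 and 26.8 CPM in controls and 15.4 and 14.6 CPM in knockouts with a log2 fold change of -0.61 ± 0.18; Dcc did not pass (adjusted p = 0.0507), although it did with DESeq2, with legacy dispersion estimation, with the replicate block and without the first control. Unc5a, the neuronal Unc5 with by far the highest level of the 5 at 61.4 CPM per kb, was at 212 and 224 CPM against 332 and 257 CPM (log2 fold change 0.44 ± 0.13, adjusted p = 0.0538). It therefore lay on the other side of 0 from Unc5b and Unc5c, although its own change did not pass. It did pass with DESeq2 (adjusted p = 0.0132). In edgeR it passed with upper-quartile scaling (adjusted p = 0.0449), the stricter filter (0.0481) and the replicate block (0.0424). It did not pass with RLE scaling (0.0551), without a filter (0.0612) or with legacy dispersion estimation (0.0515), nor with limma-voom (0.0615). Its log2 fold change was 0.62 without the second knockout library and 0.24 without the first. Without the first or second control it was 0.404 or 0.475. The share of Unc5a in the receptors' summed level per kilobase was 71.6% and 69.9% in controls and 85.8% and 83.6% in knockouts.

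The upstream sequences of the 4 members with the smallest p are shown because these members passed in each fit with 1 library left out. Each is the 250 bases before the gene's start in RefSeq (table build GRCm38.p6), read 5′ to 3′ on the gene's strand, with CG pairs in capitals. Each matched NCBIM37, the assembly behind mm9, at exactly 1 place: chrX:71002192-71002441 on the plus strand for Plxnb3, chr10:60294330-60294579 on the minus strand for Unc5b, chr10:94407480-94407729 on the minus strand for Plxnc1 and chr5:14025026-14025275 on the plus strand for Sema3e.
Plxnb3: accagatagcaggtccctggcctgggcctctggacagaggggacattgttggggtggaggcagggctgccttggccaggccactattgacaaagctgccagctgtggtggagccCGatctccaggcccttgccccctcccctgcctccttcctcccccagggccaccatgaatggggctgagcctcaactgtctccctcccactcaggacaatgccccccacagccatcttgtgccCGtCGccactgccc
Unc5b: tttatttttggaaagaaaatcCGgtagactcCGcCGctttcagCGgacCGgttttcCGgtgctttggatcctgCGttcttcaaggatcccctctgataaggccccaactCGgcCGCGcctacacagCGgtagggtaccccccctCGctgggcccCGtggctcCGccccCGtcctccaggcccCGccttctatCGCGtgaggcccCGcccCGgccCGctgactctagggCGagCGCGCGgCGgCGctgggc
Plxnc1: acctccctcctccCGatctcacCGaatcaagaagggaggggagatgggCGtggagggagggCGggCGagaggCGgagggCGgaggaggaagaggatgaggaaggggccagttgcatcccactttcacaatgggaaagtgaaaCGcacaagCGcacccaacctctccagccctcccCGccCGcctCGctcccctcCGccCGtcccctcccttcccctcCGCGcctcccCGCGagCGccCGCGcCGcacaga
Sema3e: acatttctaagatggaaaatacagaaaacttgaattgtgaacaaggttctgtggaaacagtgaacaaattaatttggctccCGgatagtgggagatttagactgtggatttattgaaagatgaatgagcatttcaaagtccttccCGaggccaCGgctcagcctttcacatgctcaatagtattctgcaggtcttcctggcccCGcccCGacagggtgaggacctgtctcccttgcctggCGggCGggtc

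These 4 windows are unlike each other. Unc5b and Plxnc1 hold 27 and 22 CG pairs, Sema3e holds 7 and Plxnb3 holds 3, beside medians, over the same 250 bases, of 16 in the 73 windows of the 57 members that matched the table and 6 in all 32851 windows. Sema3e is also the poorest in G and C (48.0%, against 65.2% to 68.8% in the other 3). The motifs of 4 factor families were searched on both strands in windows of 300 bases (250 before to 50 after the start). The STAT site TTCCNGGAA is in 1.15% of all windows, the cAMP response element TGACGTCA in 1.79%, the AP-1 site TGANTCA in 7.81%, and the palindromic estrogen response element (GGTCA and TGACC spaced by 3 bases) in 0.07%. None of these patterns contains another. The 15 called members that matched have 20 windows, and 0 of these held any of the motifs. Of the 73 member windows the AP-1 letters are in 3 (Sema4c, Sema4d and Sema6b) and the cAMP letters in 1 (Epha2). None of these 4 genes was called. A missing match says only that these letters are not in this window.

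Beyond the ligands and receptors, other cues and co-receptors were more often lower than higher. Of 30 tested, 9 fell and 21 did not pass (30% lower, against 11.0% of all genes), with a median log2 fold change of -0.18. By edgeR 0 rose, with 1 at an unadjusted p under 0.05, and DESeq2 and limma-voom each called 0 higher. Ntng1 (netrin G1, a lipid-anchored relative of netrins that binds a synaptic adhesion protein) went from 50.1 and 58.1 CPM to 25.9 and 22.3 CPM, and fell by 1.16 ± 0.13 (adjusted p = 0.00280). Cntn4 and Cntn2 are contactins, which adhere axons to each other and to glia. Cntn4 went from 28.8 and 26.6 CPM to 13.7 and 12.4 CPM and fell by 1.09 ± 0.13 (adjusted p = 0.00364), while Cntn2 went from 143 and 163 CPM to 90.9 and 70.3 CPM and fell by 0.92 ± 0.14 (adjusted p = 0.00665). The 9 falls ranged from -1.19 to -0.43 on the log2 scale. Of the list, Mag is also a marker of myelin.

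Intracellular effectors, which carry the signal to kinases and the cytoskeleton, numbered 52 among the genes tested, of which 6 fell, 1 rose and 45 did not pass (13.5% called, against 20.4% of all genes, a difference that was not tested). Dock1, an activator of Rac that Dcc recruits, fell by 1.43 ± 0.11 (adjusted p = 9.68e-04), from 55.1 and 59.3 CPM to 21.3 and 21.2 CPM. Rasa1, a Ras GTPase-activating protein that binds Eph receptors, went from 85.5 and 76.7 CPM to 55.5 and 53.7 CPM and fell by 0.57 ± 0.10 (adjusted p = 0.0114), with an adjusted p of 0.105 when the first control was left out. Dpysl4, of the collapsin response mediator family that acts below semaphorin receptors, rose by 0.70 ± 0.12 (adjusted p = 0.00796), from 66.2 and 55.7 CPM to 102 and 96.2 CPM, and did not pass without the second control (adjusted p = 0.0691).

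Each fit with a library left out has a group of 1, which is assumed to vary like the pair in the other group, and these pairs differ in spread. Over all genes 901 and 813 passed without the first or second control and 4821 and 2763 without the first or second knockout library, against 3061 with all, so the numbers of member calls in these fits are to be read against those. Of the 17 called members 4 passed with any 1 of the 4 libraries left out: Plxnb3, Unc5b, Plxnc1 and Sema3e. Without the first control 8 members were lower (against 3.59% of all genes called lower) and 0 higher (against 2.28%), with 5 higher at an unadjusted p under 0.05. Without the second control 5 were lower (against 3.37%) and 1, Efnb3, higher (against 1.93%). The falls of Unc5c (adjusted p = 0.0548) and Plxna3 (0.0956) did not pass without the second control. The fall of Epha7 (0.135) and the rise of Efnb3 (0.115) did not pass without the first. Epha5, Sema4a, Ephb6, Nrp2, Sema6d, Robo3, Sema6a, Sema3g and Epha8 did not pass without either control, with adjusted p from 0.0625 to 0.215. Without the first knockout library 18 were lower (against 15.9%) and 11 higher (against 15.6%), and without the second 14 were lower (against 9.58%) and 5 higher (against 8.50%). All 17 kept their direction throughout, with sizes that moved most where the knockout libraries differ: Sema3g was at 0.68 without the second knockout library and 1.35 without the first, Epha8 at 0.72 and 1.48, and Ephb6 at -0.53 and -1.07 on the log2 scale. Epha8 also did not pass without the second knockout library (adjusted p = 0.0613).

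**Figure D4:**
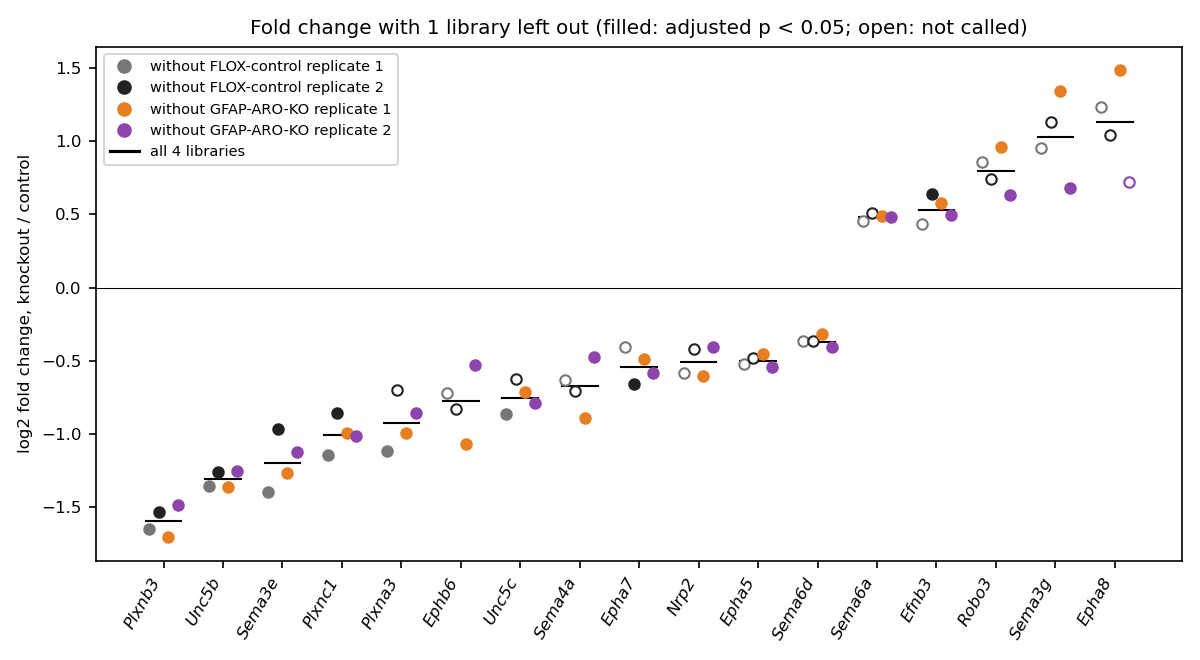
Log2 fold change (knockout against control) of the 17 called members over all 4 libraries (black line) and with 1 library left out (colored points, filled where the adjusted p stayed under 0.05). Plxnb3, Unc5b, Sema3e and Plxnc1 have 4 filled points, and no point crosses 0.

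Markers of several cell types and of tissue beside the hippocampus were called as well. Over all genes 20.4% were called, 9.39% higher and 11.0% lower. The shares called in the inhibitory neuron (20%), CA3 (14.3%), mural cell (11.1%) and striatum (25%) lists were near or below that. Of 11 markers of the oligodendrocyte lineage, where Plxnb3 is known, 6 fell and 5 did not pass, with summed levels of 4254 to 4485 CPM in controls and 3679 to 3921 CPM in knockouts. Of 10 microglia markers 9 fell, and the sum went from 518 and 580 CPM to 276 and 288 CPM. Of 10 endothelial markers, of the cells where Unc5b and Sema3g are known, 2 rose and 1 fell, with sums of 205 and 215 CPM against 219 and 286 CPM. Mural cell markers came to 149 and 165 CPM in controls and 173 CPM in the first knockout but 431 CPM in the second. Meningeal markers came to 396 and 493 CPM against 410 and 691 CPM. Their median log2 fold change was 1.395, with a range from -0.27 to 2.16, yet of 10 tested 0 were called and 0 had groups apart. The second knockout library was highest in the mural and meningeal sums. It was also the higher knockout for every member called higher, though by little for Sema6a (32.4 and 32.9 CPM) and Efnb3 (231 and 246 CPM). The knockouts lay further apart for Robo3 (9.83 and 12.4 CPM), Sema3g (8.03 and 12.8 CPM) and Epha8 (5.24 and 8.97 CPM). How often this holds among all genes called higher was not counted, and a link was not tested. Dentate granule cell markers rose in 5 of 9, from 363 to 406 CPM in controls to 506 to 536 CPM in knockouts. Of 8 CA1 markers 3 fell (1138 and 1269 CPM against 994 and 1046 CPM), and of 7 CA3 markers 1 rose (483 and 590 CPM against 472 and 491 CPM). Thalamus markers summed to 213 and 221 CPM in controls and 128 and 149 CPM in knockouts. Of the 7 tested, however, 1 fell (Slc17a6) and 1 rose (Prkcd), and the median log2 fold change was -0.003. Neocortex markers summed to 262 and 196 CPM in controls and 153 and 145 CPM in knockouts, and 3 of 7 tested fell. Of these lists only the thalamus markers had a member at 0, 1 gene in the second control. Summed astrocyte markers, at 5323 and 5649 CPM against 5088 and 5439 CPM, overlapped between groups. Single astrocyte markers did differ: of 10, 2 rose (Gjb6 and Fgfr3) and 2 fell (Aqp4 and Sox9). Their list ran from -1.40 to 1.11 in log2 fold change. Inhibitory neuron markers came to 1313 and 1369 CPM against 1212 and 1252 CPM, with 2 of 10 lower. Summed choroid plexus markers (2 of 6 tested higher) and striatum markers (2 of 8 higher) were highest in knockouts, at 55.0 and 71.3 CPM and at 173 and 167 CPM. The median log2 fold change of the striatum markers was nevertheless -0.12, with a range from -0.64 to 1.05. The part of these cell and tissue differences in the values of the guidance genes was not tested.

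**Figure D5:**
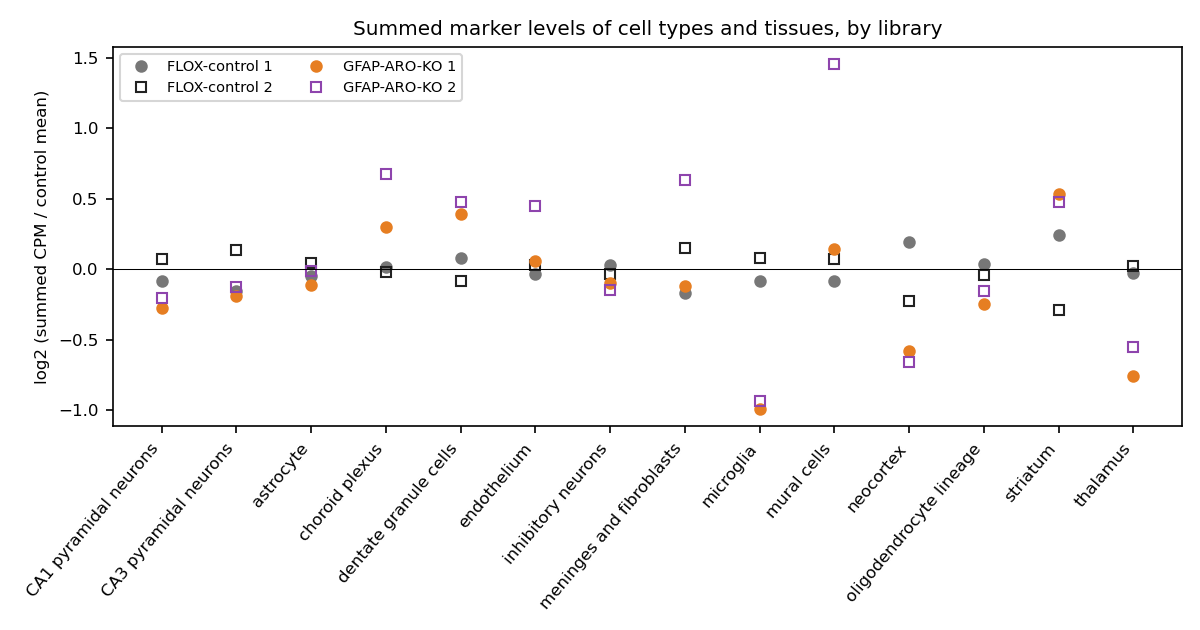
Summed level of each marker list in each library, as log2 of its ratio to the mean of the 2 controls. A sum need not describe every marker: the median log2 fold change was -0.003 for thalamus, -0.12 for striatum and 1.395 for meningeal markers. The knockout libraries lie below both controls for microglia, neocortex, thalamus, the oligodendrocyte lineage, CA1 and inhibitory neurons and above both for dentate granule cells, striatum, choroid plexus, endothelium and mural cells, the last mostly through the second library, which also stands high for meninges.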

How the data were processed

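Per the labels' protocols the authors read 50 bp from one end of total RNA libraries; the runs, made in duplicate per the design text, were combined before alignment. They used TopHat2 2.0.8b with mm9 and HTSeq, per the submitters' processing notes. No source used here states the strand setting or the annotation. The deposited files hold raw read counts per gene symbol (22609 symbols); 5 tally rows, which held 45.2% to 47.3% of all entries, stayed out of library sizes and tests. CPM used TMM factors. Genes kept by filterByExpr (minimum count 10, total 15) were tested with edgeR 4.0.16 in R 4.3.3 (glmQLFit, robust, legacy=FALSE; glmQLFTest), with Benjamini-Hochberg adjustment over 15011 genes and a threshold of 0.05, and the steps were checked on simulated counts. The SE is the absolute log2 fold change over the square root of F. Exon lengths, positions and overlaps came from GENCODE vM1 on NCBIM37, which held 66 of 67 members once (not Efna5). None of the 17 called members shares exon sequence with another gene there.

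The named genes are all called members, the most abundant of each family per kilobase, and the 3 called genes with the smallest p of each further list; others, such as Sema3a, Sema3f, Sema5a, Plxnd1, Slit2, Dcc, Ntn1, Epha6 and Efna3, were named after their values were seen. Members, lists and alternatives were chosen with earlier results of these data known. Draxin, Fer and Lamp5 of the lists were not found by symbol.

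As alternatives, scaling was by RLE or upper quartile, the filter was dropped or raised (50 counts in 2 libraries), dispersions were estimated the legacy way, DESeq2 1.42.0 or limma-voom (limma 3.58.1) replaced edgeR, replicate number entered as a block, and libraries were left out one at a time. Running them on the 2 further gene lists was decided after seeing the data. No outlier test was made, since a group holds 2 libraries.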

Additional observations from a re-analysis of the deposited data

How the results depend on the processing

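Under scaling, filter, estimation and tool, the members called higher numbered 4 to 7 and those called lower 12 to 15, and every called member kept its direction. With the first or second control or the first or second knockout library left out, 0 to 11 were higher and 5 to 18 lower. Among other cues 0 to 2 were then higher and 3 to 13 lower, and among effectors 0 to 3 higher and 2 to 9 lower. With DESeq2 2 effectors were higher. Leaving out 1 library was followed by gene for the called members and for the most abundant of each family; among the latter, 4 that were not called changed sign in log2 fold change: Sema7a ran from -0.036 to 0.238, Plxna1 from -0.069 (and -0.036) to 0.380, Slit1 from -0.320 to 0.039 (and 0.029) and Robo1 from -0.314 to 0.122. The cause was not tested. Epha8 did not pass with limma-voom (adjusted p = 0.0522). Same-numbered libraries did not deviate together (correlation -0.006 over 15011 genes), which cannot decide whether they were paired or processed together. With the replicate number as a block in edgeR 6 members were higher, 12 lower and 2 effectors higher, and Sema6d did not pass (adjusted p = 0.0539). With 2 libraries a group, genes at a few CPM such as Epha8 are the least certain.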
